A study of Mus musculus with 6 samples.

Results

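The genes described here are 40 genes of glucose uptake, glycolysis, lactate handling, entry of pyruvate into mitochondria and glycogen turnover, out of 47729 genes in the deposited count table. They were chosen by gene symbol, with the enolases left out, and all 40 symbols were found in the table. Of these, 38 had enough counts to be tested, and Hkdc1 and Aldoc were too low. Transcripts were measured in pieces of the mouse left ventricle, all cell types together, 9 days after surgery. The surgery, transverse aortic constriction (TAC), ties a band around the aortic arch so that the heart must pump against a raised pressure. The control group and the Treg group have 3 libraries each, and by the title of the series Treg stands for systemic delivery of regulatory T cells that were raised in culture without CD28 stimulation. All 6 samples underwent TAC, and the labels used here do not give the strain, sex or age of the mice, the dose of cells, or what the control mice received. Whether every library comes from a separate mouse is not stated, so p-values here measure only the spread between libraries, which may be technical.

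Glycolysis splits glucose into pyruvate, which is either reduced to lactate or carried into the mitochondrion and oxidised by the pyruvate dehydrogenase complex. Many of its steps are served by several isoenzymes: skeletal and heart muscle rely on Slc2a4 (GLUT4), Hk2, Pfkm, Pgam2 and Pygm, while Slc2a1 (GLUT1), Hk1, Pfkp and Pgam1 are used by many other tissues and by the fetal heart. The healthy adult heart burns mainly fatty acids, and pressure overload is known for raising its use of glucose. Several glycolytic genes are textbook targets of hypoxia-inducible factor.

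Library totals lay between 28937253 and 29979080 counts. Levels are in CPM (a gene's counts relative to its library's size, the size corrected for composition by TMM factors), and all fold changes are Treg over control. Correlations of log2 CPM over all genes tested were 0.9359 to 0.9571 between control replicate 3 and the other libraries, against 0.9673 to 0.9907 among the rest. Heart muscle markers were abundant in all libraries (10 of 10 tested), and their summed level was lowest in control replicate 3, at 37200 CPM, against 48080 and 55100 in the other controls and 46080 to 62020 in the Treg libraries. In the same library the 7 neutrophil markers summed to 40.13 CPM against 7.05 to 18.99 elsewhere, and the 7 erythroid markers to 291.9 CPM against 1073 to 2851. Macrophage, fibroblast and endothelial markers were detected throughout, and the 7 T cell markers summed to 3.18 to 17.7 CPM in control and 3.10 to 3.80 in Treg, with Cd3d, Cd3g and Trac at 0 in some libraries. Of all marker genes edgeR called 0 and DESeq2 called 2: Myh11, of smooth muscle, higher (0.68 ± 0.15), and Cd3e lower, at 2.88, 1.19 and 15.65 CPM in control and 0.396 to 0.577 in Treg. Neither stands for its list. Of the 6 smooth muscle and pericyte markers tested, 4 had a fold change below 0 (median −0.13). Of the 3 T cell markers tested, 2 had one above 0. In bulk tissue, fewer cells of a type and less RNA per cell cannot be told apart, and the part of these shifts in the results below was not tested.

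By edgeR's quasi-likelihood test, with Benjamini-Hochberg adjustment over 17365 genes, 0 of the 38 tested members had an adjusted p under 0.05, where 0.0% of all genes did. At an unadjusted p under 0.05 there were 17 members, 6 higher and 11 lower in the Treg libraries, where 16.5% of all genes passed (8.23% higher and 8.31% lower). DESeq2, a second count test, called 8 members, 1 higher and 7 lower, where it called 3.71% of all genes (1.83% higher and 1.88% lower). On counts simulated for this comparison DESeq2 made 51 false calls, against 14 by edgeR. It also recovered more of the 100 genes changed by 1 on the log2 scale, 50 against 25. The simulated counts held no outlying library like control replicate 3, so they cannot weigh the 2 tests' calls on the real libraries. Limma-voom called 0 members, as did the newer of edgeR's quasi-likelihood methods, and limma-voom with sample quality weights called 4 (Pfkfb1 higher, and Pgk1, Slc16a3 and Pdk3 lower), where it called 1.52% of all genes (0.789% higher and 0.731% lower). Without control replicate 3, edgeR called 4 members (Pfkfb1 higher, and Pfkp, Pgk1 and Pdk3 lower), where it called 1.3% of 17648 genes (0.674% higher and 0.629% lower). At an adjusted p under 0.1 with all libraries, edgeR called Pgk1 and Pdk3, both lower, where 0.472% of all genes passed (0.253% higher and 0.219% lower). All 3 Treg libraries lay above all 3 controls for 4 members and below them for 12, against 13.7% and 11.7% of all genes. The median log2 fold change was −0.14 over the 38 members and −0.02 over all genes tested.

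**Figure D1:**
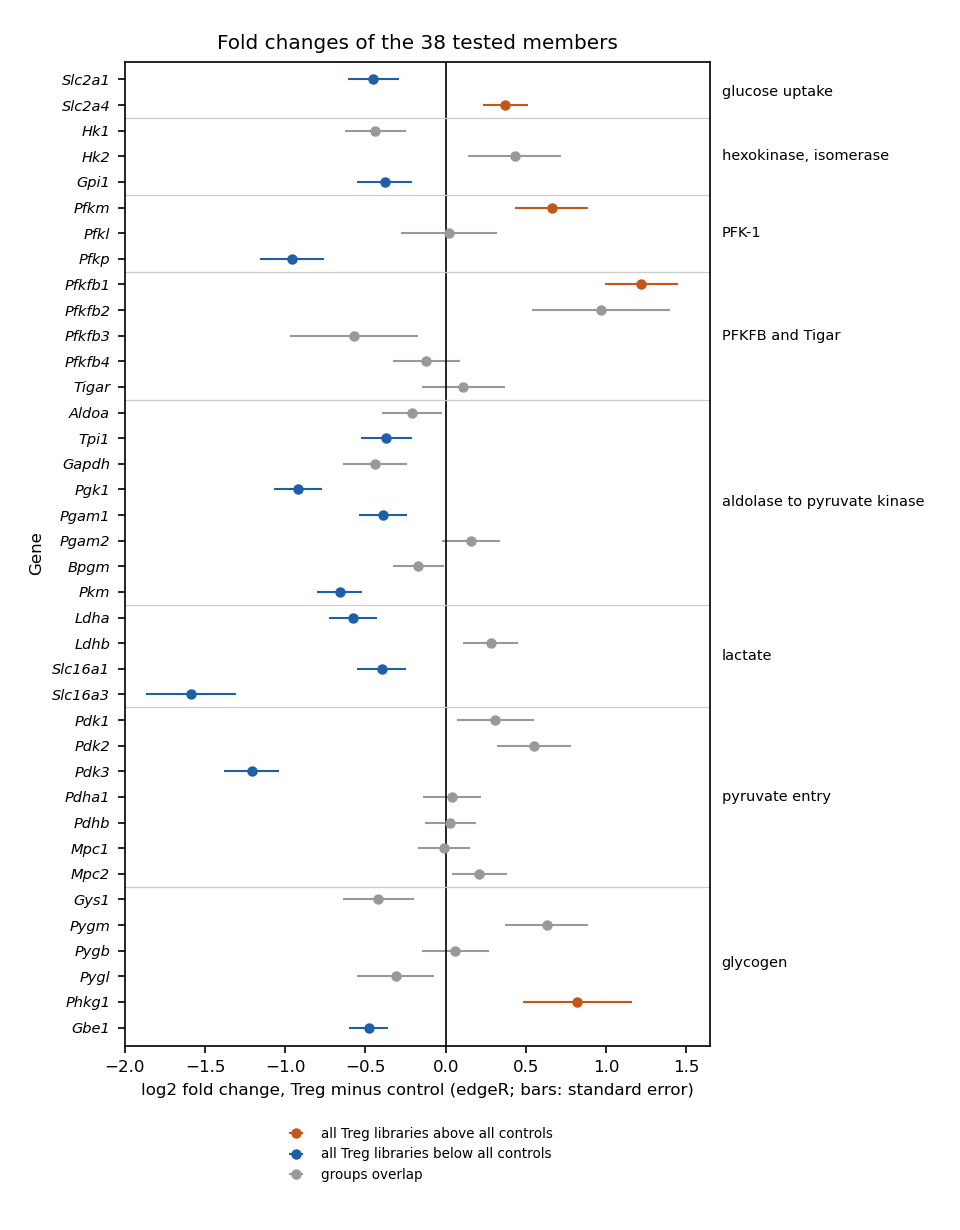
Log2 fold change (Treg over control, horizontal axis; edgeR, bars are standard errors) of the 38 tested members, grouped by step from glucose uptake to glycogen. Blue points mark the 12 members with every Treg library below every control, orange points the 4 with every Treg library above, and grey points those whose groups overlap; Slc16a3 has the lowest value, −1.59, and Pfkfb1 the highest, 1.22.

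Of the 39 members with a listed start, 30 carry upstream of one the short core that hypoxia-inducible factor binds (ACGTG or GCGTG). They include 6 of the 7 members that DESeq2 called lower and also Pfkfb1, the only member that it called higher. The share of all genes with the core upstream of any start was not counted, and genes with several starts have more chances of a match. Of the 6 called lower, Pgk1, Ldha, Slc16a3 and Pfkp are shown as examples. Each line gives the 250 bases before a RefSeq start (GRCm38.p6), read 5′ to 3′ along the gene's strand, with capitals marking the motif ACGTG, the motif GCGTG or the E-box CACGTG on either strand.
Pgk1, chrX:106186850-106187099, plus strand: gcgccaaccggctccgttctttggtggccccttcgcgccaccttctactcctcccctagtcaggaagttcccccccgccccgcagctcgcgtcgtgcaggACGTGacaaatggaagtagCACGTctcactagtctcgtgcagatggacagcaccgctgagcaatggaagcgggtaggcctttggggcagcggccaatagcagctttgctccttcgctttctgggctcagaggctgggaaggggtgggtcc
Ldha, chr7:46845554-46845803, plus strand: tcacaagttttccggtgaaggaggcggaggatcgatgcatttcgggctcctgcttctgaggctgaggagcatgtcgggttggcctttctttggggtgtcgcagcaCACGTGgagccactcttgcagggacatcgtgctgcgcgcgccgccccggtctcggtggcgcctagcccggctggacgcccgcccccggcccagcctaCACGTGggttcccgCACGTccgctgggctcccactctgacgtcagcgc
Slc16a3, chr11:120948817-120949066, plus strand: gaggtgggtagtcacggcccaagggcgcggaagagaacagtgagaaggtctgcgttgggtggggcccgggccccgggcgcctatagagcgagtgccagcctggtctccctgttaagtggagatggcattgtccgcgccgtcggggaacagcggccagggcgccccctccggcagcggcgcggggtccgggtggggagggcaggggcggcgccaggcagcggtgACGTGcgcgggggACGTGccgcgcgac
Pfkp, chr13:6648772-6649021, minus strand: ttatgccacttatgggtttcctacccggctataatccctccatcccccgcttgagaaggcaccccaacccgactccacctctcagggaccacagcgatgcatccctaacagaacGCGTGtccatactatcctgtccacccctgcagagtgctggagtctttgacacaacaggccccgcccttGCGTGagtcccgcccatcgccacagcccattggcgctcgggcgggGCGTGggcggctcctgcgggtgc
By these letters the Pgk1 and Slc16a3 stretches each hold 2 matches to ACGTG. The Ldha stretch holds 5, of which 4 come from its 2 copies of the E-box, since each copy reads as ACGTG on both strands. Another Ldha start, not printed, holds 1 match to GCGTG and none to ACGTG. The Pfkp stretch holds 3 matches to GCGTG. Pdk3, not printed because its stretch runs further into an annotated exon, holds 1 match to ACGTG and 3 to GCGTG, and of the 2 starts of Pkm one holds 1 match to ACGTG and the other none. One or both of ACGTG and GCGTG were found in 66.7% of the 57 starts listed for 39 members (Slc2a4 had no entry) and in 38.6% of all 32851 starts of the same length. The E-box was in 10.5% of the members' starts and 6.02% of all. Matches were not limited to members with lower levels. The upstream stretch of Hk2, whose mean was higher in the Treg libraries, also holds 2 matches to ACGTG, and that of Gbe1, called lower by DESeq2, holds none. These are matches of letters and say nothing of binding.

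At the first step, the groups did not overlap for either transporter, and the differences had opposite signs. Slc2a4, which insulin and contraction bring to the muscle cell surface, was at 229.2, 233.9 and 218.8 CPM in the control libraries and 277.5, 330.9 and 269.8 in the Treg libraries. Slc2a1, the constitutive transporter, was at 27.4, 26.8 and 19.6 CPM in control and 16.3, 19.0 and 18.6 in Treg. The Slc2a4 libraries were well apart, while the lowest control and the highest Treg value of Slc2a1 were close to each other. The log2 fold changes were 0.37 ± 0.14 (SE) for Slc2a4 and −0.45 ± 0.16 for Slc2a1 (edgeR adjusted p = 0.276 and 0.262; DESeq2 0.161 and 0.214). Per kilobase of transcript Slc2a4 was the more abundant, at 90.0 CPM per kb in control and 116 in Treg, against 7.55 and 5.51 for Slc2a1.

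The hexokinases, which trap glucose as glucose 6-phosphate, differed in the same sense but with overlap. Hk1, the form found in most tissues, was at 394.1, 312.7 and 260.6 CPM in control and 207.6, 269.4 and 235.4 in Treg (log2 fold change −0.44 ± 0.19, edgeR adjusted p = 0.307). Hk2, the main form of adult muscle, was at 270.3, 211.7 and 116.9 CPM in control and 252.2, 309.7 and 246.6 in Treg (0.43 ± 0.29, edgeR adjusted p = 0.47). Control replicate 3 was far below the other libraries for Hk2, and the fold change was 0.16 without that library and 0.72 without control replicate 1. Hkdc1, a hexokinase-related gene, had 1, 1 and 0 counts in control and 0 in each Treg library. Gpi1, which turns glucose 6-phosphate into fructose 6-phosphate, was at 769.8, 553.8 and 574.3 CPM in control and 464.8, 515.3 and 475.3 in Treg. Its groups did not overlap, with a log2 fold change of −0.38 ± 0.17 (edgeR adjusted p = 0.322).

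Phosphofructokinase, the step that commits sugar to glycolysis, is built from muscle (Pfkm), liver (Pfkl) and platelet (Pfkp) subunits that mix in one enzyme. Pfkm was at 598.5, 411.3 and 348.5 CPM in control and 730.1, 789.4 and 620.4 in Treg. Pfkp (ENSMUSG00000021196; GRCm38 chromosome 13, 6579768 to 6648777) was at 271.9, 244.5 and 200.4 CPM in control and 93.1, 133.2 and 141.4 in Treg. Both genes' groups were apart, in opposite directions. Pfkp had a log2 fold change of −0.96 ± 0.20 (edgeR adjusted p = 0.136; DESeq2 0.00163), and −1.08 without control replicate 3 (edgeR adjusted p = 0.0437). Pfkm had 0.66 ± 0.23 (edgeR adjusted p = 0.253; DESeq2 0.11). Pfkl overlapped, at 77.9 to 180.5 CPM in control and 141.4 to 152.8 in Treg, with 0.02 ± 0.30 and with −0.28 when control replicate 3, its lowest library, was left out. Per kilobase, the order in control was Pfkm at 157 ± 45.2 CPM per kb (SD, n = 3), Pfkp at 57.6 ± 8.71 and Pfkl at 38.8 ± 15.5. In the Treg libraries it was Pfkm at 248 ± 29.8, Pfkl at 39.2 ± 1.57 and Pfkp at 29.6 ± 6.25.

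The bifunctional PFKFB enzymes make and remove the sugar phosphate that switches phosphofructokinase on. Pfkfb1 (ENSMUSG00000025271; chromosome X, 150588229 to 150643878), known from liver and muscle, was at 2.63, 3.24 and 3.67 CPM in control and 9.43, 6.06 and 6.78 in Treg. It was the only member that DESeq2 called higher, with a log2 fold change of 1.22 ± 0.23, or 2.33-fold (edgeR adjusted p = 0.12; DESeq2 0.000891), and edgeR called it without control replicate 3 (1.34, adjusted p = 0.0439). Pfkfb2, the heart form, was at 74.7, 43.9 and 20.4 CPM in control and 83.3, 116.1 and 73.4 in Treg, so control replicate 1 lay just inside the Treg range. Its fold change of 0.97 ± 0.43 (edgeR adjusted p = 0.311) ran from 0.62 without control replicate 3 to 1.51 without control replicate 1. Pfkfb3, the inducible form, was at 28.98 CPM in control replicate 3 and at 9.59 to 13.5 in the other 5 libraries, and its fold change went from −0.57 to 0.08 without that library. Pfkfb4 (−0.12) and Tigar (0.11), a phosphatase that lowers the same sugar phosphate, overlapped.

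From aldolase to pyruvate kinase, 7 of the 8 tested genes had a fold change below 0, and 4 of the 8 had groups that did not overlap, all lower in Treg, against 11.7% of all genes. Pgk1 (ENSMUSG00000062070; chromosome X, 106187100 to 106203699), phosphoglycerate kinase, was at 745.0, 819.8 and 688.4 CPM in control and 365.0, 419.5 and 404.4 in Treg. Pkm (ENSMUSG00000032294; chromosome 9, 59656368 to 59679375), pyruvate kinase, was at 1561, 1613 and 1681 CPM in control and 1013, 1068 and 994.1 in Treg. Both were tight within each group and far apart between groups. Pgk1 had a log2 fold change of −0.92 ± 0.15 (edgeR adjusted p = 0.0989; DESeq2 1.69e-07) and −0.98 without control replicate 3 (edgeR adjusted p = 0.0364). Pkm had −0.66 ± 0.14 (edgeR adjusted p = 0.136; DESeq2 4.3e-06), with −0.63 to −0.69 whichever library was left out. A count per gene does not separate the muscle and embryonic splice forms of Pkm.

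Tpi1, triose phosphate isomerase, was at 790.3, 977.2 and 931.6 CPM in control and 656.7, 764.6 and 669.3 in Treg (−0.37 ± 0.16, edgeR adjusted p = 0.299). Pgam1, the broadly expressed phosphoglycerate mutase, was at 68.6, 91.0 and 77.0 CPM in control and 53.0, 63.0 and 64.9 in Treg (−0.39 ± 0.15, edgeR adjusted p = 0.28). Pgam2, its muscle partner, lay at 260.1 to 383.8 CPM in control and 315.5 to 380.3 in Treg (0.16 ± 0.18) and was the 1 gene of these 8 with a fold change above 0. Aldoa, the muscle aldolase, overlapped at 1823 to 2604 CPM in control and 1758 to 2153 in Treg (−0.21). Bpgm, which serves red cells above all, had −0.17. Aldoc, the brain aldolase, was not tested, at 7, 18 and 12 counts in control and 4, 5 and 6 in Treg.

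Gapdh, glyceraldehyde phosphate dehydrogenase and a common reference gene, was at 1541, 1305 and 1072 CPM in control and 843.3, 1135 and 901.8 in Treg, with an overlap between control replicate 3 and Treg replicate 2. Its log2 fold change was −0.44 ± 0.20 (edgeR adjusted p = 0.317). Most of the counts on Gapdh-like sequence were in other rows: 108 annotated pseudogenes held 78.0% to 78.7% of the sum of the gene and its copies. With them added, the log2 ratio of the group means was −0.46 in place of −0.44. The share in copies was 12.8% to 13.9% for Pgk1, 13.8% to 14.9% for Pgam1, 13.2% to 14.6% for Mpc1 and at most 1.71% for the 36 members other than these and Gapdh. Adding the copies left the log2 ratio of the group means at −0.92 for Pgk1, −0.39 for Pgam1 and −0.01 for Mpc1, so the levels of these genes are uncertain but their differences hardly moved.

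Of the 4 lactate genes, DESeq2 called Slc16a3 and Ldha lower, and Slc16a3 had the lowest fold change of all members. Slc16a3 (ENSMUSG00000025161; chromosome 11, 120948480 to 120960868), the lactate exporter of glycolytic cells, was at 16.4, 25.4 and 17 CPM in control and 4.55, 6.24 and 8.70 in Treg. Ldha (ENSMUSG00000063229; chromosome 7, 46841475 to 46855627), the dehydrogenase subunit that favours lactate formation, was at 896.8, 1098 and 1011 CPM in control and 622.4, 705.9 and 679.1 in Treg. In both genes every Treg library was below every control. Slc16a3 had a log2 fold change of −1.59 ± 0.28 (edgeR adjusted p = 0.113; DESeq2 3.49e-05), and Ldha −0.58 ± 0.15 (edgeR adjusted p = 0.184; DESeq2 0.00421). Slc16a1, the monocarboxylate transporter of heart muscle, was at 243.5, 283.7 and 315.6 CPM in control and 222.0, 216.3 and 202.1 in Treg (−0.40 ± 0.15, edgeR adjusted p = 0.263). Ldhb, the heart subunit that favours lactate use, was at 885.4, 834.4 and 829.9 CPM in control and 972.6, 1234 and 881.6 in Treg, and control replicate 1 lay just above the lowest Treg library. Its fold change was 0.28 ± 0.17 (edgeR adjusted p = 0.439). Per kilobase, Ldhb was at 652 ± 23.7 CPM per kb (SD, n = 3) in control and 789 ± 140 in Treg, and Ldha at 567 ± 57.1 and 379 ± 24.1. The transporters were lower, at 63.5 ± 8.16 and 48.2 ± 2.31 for Slc16a1 and 4.52 ± 1.16 and 1.5 ± 0.481 for Slc16a3. Cells other than heart muscle also hold Slc16a3 and Pfkp. Summed macrophage markers overlapped, at 211.2 to 340.6 CPM in control and 245.1 to 329.7 in Treg, as did fibroblast markers, at 2506 to 4177 and 2212 to 3351. The part of these or other cells in the values of Slc16a3 and Pfkp was not tested.

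Of the 7 genes that govern pyruvate entry, DESeq2 called Pdk3 lower and none of the other 6. The pyruvate dehydrogenase kinases switch the complex off. Pdk3 (ENSMUSG00000035232; chromosome X, 93764607 to 93832201), the kinase least restrained by pyruvate, was at 5.93, 6.42 and 6.46 CPM in control and 2.74, 2.81 and 2.61 in Treg. With SDs of 0.296 and 0.104 CPM, this was the member with the smallest p by edgeR: a log2 fold change of −1.21 ± 0.17 (edgeR adjusted p = 0.0871; DESeq2 7.72e-06), and −1.18 without control replicate 3 (edgeR adjusted p = 0.0293). By DESeq2, Pgk1 and Pkm had smaller adjusted p values. The level of Pdk3 was low: per kilobase it held 2.97 CPM in control and 1.29 in Treg, against 52.1 and 64.4 for Pdk1 and 75.2 and 110 for Pdk2. Pdk1 was at 363.5, 259.2 and 187.8 CPM in control and 315.8, 365.3 and 320.9 in Treg (0.31 ± 0.24), moving to 0.10 without control replicate 3. Pdk2 was at 131.8 to 223.6 CPM in control and 209.2 to 285.1 in Treg (0.55 ± 0.23, edgeR adjusted p = 0.293). The enzyme and carrier genes overlapped closely. Mpc1, a subunit of the mitochondrial pyruvate carrier, was at 187.8, 191.0 and 170.5 CPM in control and 166.4, 216.8 and 161.4 in Treg (−0.01 ± 0.16), its partner Mpc2 had 0.21 ± 0.17, and the dehydrogenase subunits Pdha1 and Pdhb had 0.04 ± 0.18 and 0.03 ± 0.16.

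Among glycogen genes 3 of 6 had a fold change above 0, and DESeq2 called only the branching enzyme Gbe1, lower. Pygm, the muscle phosphorylase that frees glucose units, was at 691.4, 484.8 and 340.5 CPM in control and 799.7, 867.0 and 686.8 in Treg, with control replicate 1 just above the lowest Treg library (0.63 ± 0.26, edgeR adjusted p = 0.293). Phkg1, the muscle catalytic subunit of the kinase that activates it, was at 4.53, 3.84 and 2.15 CPM in control and 5.47, 8.51 and 4.59 in Treg. Its groups did not overlap, but the gap between the nearest libraries was small (0.82 ± 0.34, edgeR adjusted p = 0.293). Gbe1 (ENSMUSG00000022707; chromosome 16, 70313949 to 70569716), the glycogen branching enzyme, was at 66.9, 71.1 and 79.1 CPM in control and 49.7, 56.7 and 49.8 in Treg (−0.48 ± 0.12, edgeR adjusted p = 0.183; DESeq2 0.0399). Gys1, the muscle glycogen synthase, was at 186.2, 145.9 and 118.4 CPM in control and 95.8, 142.4 and 97.5 in Treg, with overlap (−0.42 ± 0.22, edgeR adjusted p = 0.381). The brain and liver phosphorylases Pygb (0.06) and Pygl (−0.31) overlapped too. Per kilobase, the phosphorylases in control were in the order Pygb at 215 ± 54.6 CPM per kb (SD, n = 3), Pygm at 176 ± 61.4 and Pygl at 10.7. In the Treg libraries the order was Pygm at 273 ± 31.7, Pygb at 225 ± 23.2 and Pygl at 8.65; in control the difference between Pygb and Pygm was within the SD.

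**Figure D2:**
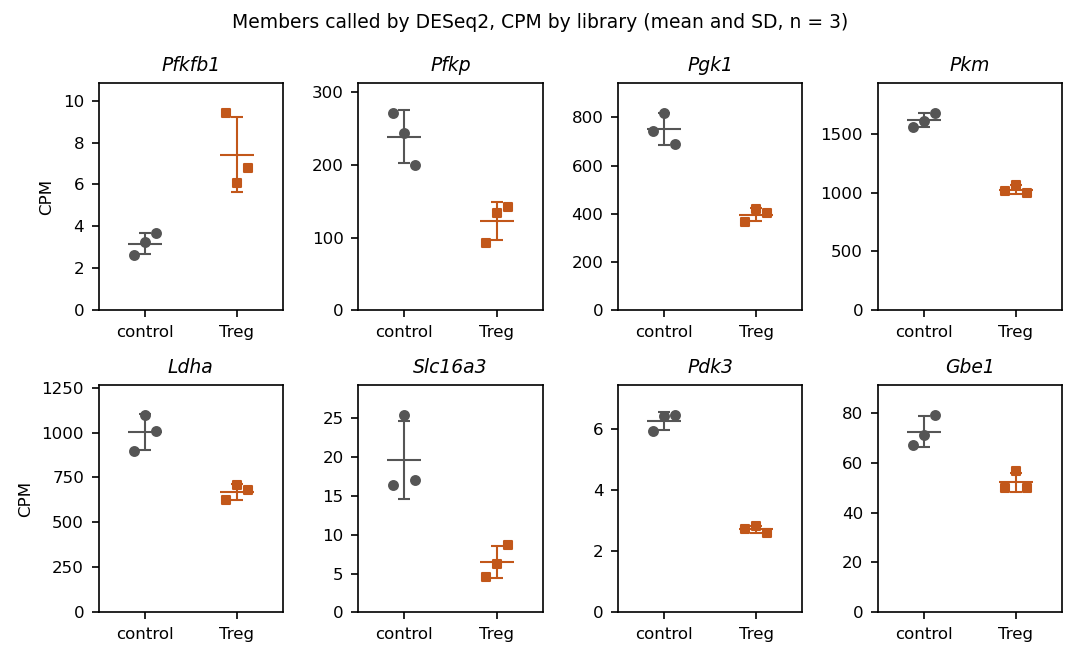
CPM in each library (vertical axis, from 0) of the 8 members that DESeq2 called, for control (grey circles) and Treg (orange squares), with the mean and SD of 3 libraries. Pfkfb1 is higher in every Treg library, and the other 7 are lower, from Gbe1 at −0.48 to Slc16a3 at −1.59 on the log2 scale.

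Isoform genes of the same step can also be compared within each library, where the scaling between libraries drops out. Of 10 ratios between isoform genes, 7 had groups that did not overlap, and all 7 were lower in the Treg libraries. Of all 39156825 ratios between 2 genes, each averaging 10 CPM or more, 28.5% did not overlap. The 10 pairs were chosen with earlier results of these data known, so setting these shares side by side is no test. The Pfkp to Pfkm count ratio was 0.454, 0.594 and 0.575 in control and 0.127, 0.169 and 0.228 in Treg, a 3.16-fold difference of geometric means. The Slc16a3 to Slc16a1 ratio was 0.0674, 0.0895 and 0.0539 in control and 0.0205, 0.0288 and 0.0430 in Treg, or 2.34-fold lower. Control replicate 3, which stood apart on the level of many genes, lay between the other controls for Pfkp to Pfkm. For Slc16a3 to Slc16a1 and Slc2a1 to Slc2a4 it was the control nearest to the Treg libraries. For Hk1 to Hk2, Pgam1 to Pgam2 and Pygb to Pygm it was the control farthest from them. Without it the difference in mean log2 ratio went from −0.94 to −0.74 for Hk1 to Hk2 and from −0.55 to −0.44 for Pgam1 to Pgam2. It went the other way, from −1.22 to −1.40, for Slc16a3 to Slc16a1.

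Hk1 to Hk2 was 1.46, 1.48 and 2.23 in control and 0.823, 0.870 and 0.955 in Treg, with no overlap. Ldha to Ldhb was 1.01, 1.32 and 1.22 in control and 0.640, 0.572 and 0.770 in Treg, also without overlap. Per kilobase Hk1 exceeded Hk2 in both groups, at 83.7 against 36.2 CPM per kb in control and 61.7 against 48.9 in Treg, and Ldhb exceeded Ldha in both. Slc2a1 to Slc2a4 lay at 0.0895 to 0.119 in control and 0.0573 to 0.0690 in Treg, Pgam1 to Pgam2 at 0.225 to 0.296 and 0.147 to 0.206, and Pygb to Pygm at 1.55 to 1.90 and 1.02 to 1.21. Each of these 7 ratios had an exact two-sided permutation p of 0.1, the smallest that 3 libraries against 3 can give, and 0.143 after adjustment over the 10 ratios. Pfkl to Pfkm, Pdk1 to Pdk2 and Aldoc to Aldoa overlapped (exact permutation p = 0.2 for each). Count ratios carry the transcripts' lengths, so they compare groups and not the amounts of both gene products.

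**Figure D3:**
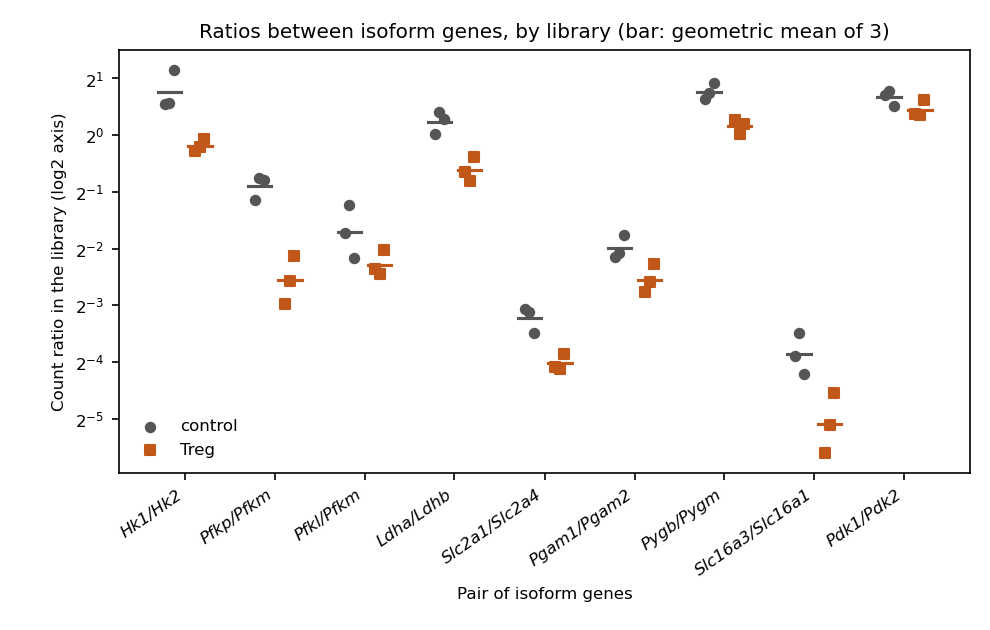
Count ratio of 2 isoform genes in each library (vertical axis, log2 scale) for 9 of the 10 pairs, control in grey circles and Treg in orange squares, with bars at the geometric mean of 3 libraries; Aldoc to Aldoa, with 4 to 18 counts of Aldoc in a library, is left out. The Treg values lie below the control values without overlap in 7 pairs and overlap them for Pfkl to Pfkm and Pdk1 to Pdk2.

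Some libraries held more of the members' extreme values than others. Treg replicate 1 held the lowest of the 6 values for 12 of 38 members (31.6%, against 12.7% of all genes tested). The highest value was in Treg replicate 2, the library highest in summed heart muscle markers, for 13 members (34.2%, against 15.9%), and in control replicate 1 for 11 (28.9%, against 12.3%). Control replicate 3, the library lowest in those markers, was lowest for 15 members (39.5%), among them Hk2, Pfkm, Pfkl, Pfkfb2, Pdk1, Pdk2, Pygm and Phkg1, but it was also lowest for 31.9% of all genes. Summed heart muscle markers overlapped between the groups, but single markers leaned one way: 8 of 10 had a fold change above 0 (median 0.29, and 0.24 without control replicate 3), and 4 of 10 (Actc1, Myl2, Pln and Tcap) were higher in every Treg library, against 13.7% of all genes. By edgeR 3 of the 10 had an unadjusted p under 0.05, all higher, and 0 an adjusted p under 0.05. Slc2a4, Pfkm and Phkg1 were also higher in every Treg library, and the part of heart muscle content in these values and in the isoform ratios was not tested. The median over members of the highest control over the lowest control was 1.40, and 1.29 for the Treg libraries; for all genes with a count in every library it was 1.49 and 1.23.

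**Figure D4:**
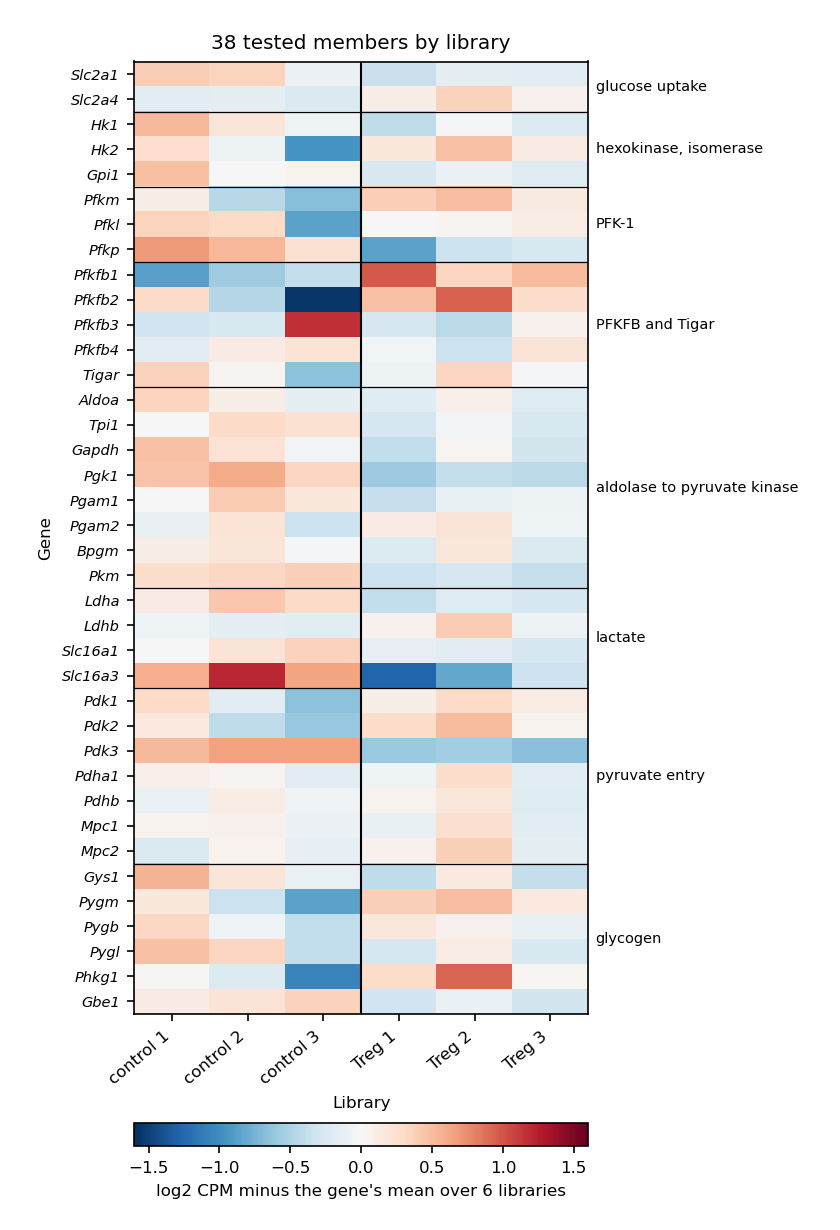
Log2 CPM of each tested member (rows, ordered by step) in each library (columns), as the difference from the gene's mean over 6 libraries, red above and blue below. Pgk1, Pkm, Ldha, Slc16a3 and Pdk3 are red in the 3 controls and blue in the 3 Treg libraries, Slc2a4 and Pfkfb1 are the reverse, and Hk2, Pfkl, Pfkfb2, Pygm and Phkg1 are bluest in control replicate 3.

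The other genes of glucose metabolism were read from 8 lists that do not share genes with the members. Of 117 genes tested in them, edgeR called 0 and DESeq2 called 8 (5 higher and 3 lower, with 3.71% of all genes called); the groups did not overlap for 20 higher and 9 lower, shares not far from the 13.7% and 11.7% of all genes, and the median log2 fold change was −0.01. In the 16 other genes of uptake and glycolysis tested, DESeq2 called 0. The 4 with the smallest p were Ldhd, a lactate dehydrogenase for the D form (0.78), Slc2a12, a second insulin-responsive transporter of heart muscle (0.93), Fbp1, which runs the phosphofructokinase step in reverse (−1.24, at a mean under 1 CPM), and Galm, which interconverts glucose anomers (1.06). Their edgeR adjusted p values were 0.198, 0.238, 0.26 and 0.261. In the 15 genes of lactate transport and pyruvate oxidation, Pdp2, a phosphatase that switches pyruvate dehydrogenase on, was at 4.98, 5.63 and 2.66 CPM in control and 10.6, 9.34 and 7.98 in Treg (1.07 ± 0.29, edgeR adjusted p = 0.188; DESeq2 0.0257). Slc16a7 had 1.02, Emb, a chaperone of lactate transporters, −1.35, and Bsg, the other such chaperone, −0.41. Pdk4, the kinase induced by fasting and fatty acids, was at 1997 CPM in control replicate 3 and at 60.9 to 347.2 in the other 5 libraries (−1.94 ± 1.31, edgeR adjusted p = 0.472), and DESeq2 gave it no adjusted p.

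The 17 other glycogen genes and the 10 shuttle genes tested had 0 calls by edgeR and by DESeq2, with median log2 fold changes of 0.10 and 0.00. The smallest p values there belonged to Ppp1r3b, a glycogen-targeting subunit of protein phosphatase (0.80, edgeR adjusted p = 0.22), and Gpd1, glycerol phosphate dehydrogenase (−0.47, edgeR adjusted p = 0.265). In the pentose phosphate list (10 tested) DESeq2 called Prps2, which makes the ribose precursor of nucleotides, higher (0.82 ± 0.17, edgeR adjusted p = 0.135; DESeq2 0.0043). It called Pgd, an NADPH-making enzyme of the oxidative branch, lower (−0.48 ± 0.13, edgeR adjusted p = 0.184; DESeq2 0.0452). Of the hexosamine and polyol genes (9 tested) it called Akr1b3, aldose reductase, higher (0.39, DESeq2 adjusted p = 0.0486).

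Among hypoxia-inducible factor and its targets outside glycolysis, 13 of 17 tested genes had a fold change below 0 (median −0.13), against 9038 of all 17365. EdgeR called 0 and DESeq2 called 2, both lower (1.88% of all genes). The groups did not overlap for 2 higher and 2 lower, shares not far from the 13.7% and 11.7% of all genes. Hif1a, the factor itself, was at 131.6, 138.0 and 128.1 CPM in control and 95.7, 90.7 and 101.1 in Treg, with groups well apart (−0.47 ± 0.12, edgeR adjusted p = 0.17; DESeq2 0.00868). Car9, a carbonic anhydrase strongly induced by low oxygen, was at 3.37, 3.51 and 6.497 CPM in control and 1.29, 1.26 and 2.32 in Treg (−1.45 ± 0.37, edgeR adjusted p = 0.177; DESeq2 0.0144). The next smallest p values went both ways, with 0.62 for P4ha1, a collagen prolyl hydroxylase, and −0.73 for Egln3, which marks the factor for destruction (edgeR adjusted p = 0.28 and 0.283). Of 23 regulators of glucose use, edgeR called 0 and DESeq2 called 2, both higher. Ppara, a driver of fatty acid burning, was at 19.9, 22.8 and 16.8 CPM in control and 29.1, 36.0 and 36.5 in Treg (0.77 ± 0.16, edgeR adjusted p = 0.136; DESeq2 0.00618). Tbc1d4, which holds Slc2a4 vesicles inside the cell until insulin acts, was at 51.0, 39.7 and 43.3 CPM in control and 62.2, 63.8 and 66.3 in Treg (0.52 ± 0.13, edgeR adjusted p = 0.171; DESeq2 0.0383). Klf15, a factor that raises Slc2a4, had 0.52 ± 0.24 with overlap, and Txnip, a glucose-induced brake on uptake, was at 922.3 CPM in control replicate 3 and 250.2 to 666.5 elsewhere (0.05, and 0.96 without that library).

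Some members share exons with a neighbour in GENCODE M21: 5.58% of the Pfkp exon bases overlap Pitrm1 and 3.06% of those of Pfkfb1 overlap Apex2, on the opposite strand. For Phkg1 and Sumf2 the share is 9.68%, for Gpi1 and Gm26762 11.5%, and for Mpc1 and 4930506C21Rik 23.1%. On the same strand, Pfkfb2 shares 17.4% of its exon bases with Gm29427, Pkm 15.3% with Gm49759 and Pfkm 10.2% with Gm26513. The counting options are not known here, strand included, so reads of these overlaps cannot be assigned.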

How the data were processed

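Left ventricular RNA of 6 samples (3 control, 3 Treg, 9 days after TAC) was sequenced as stranded mRNA libraries, per the labels' protocols. The submitters' processing notes name the build GRCm38 and 4 tools without their roles: HISAT2 2.1.0, Trimmomatic 0.39, Cuffdiff 2.2.1 and featureCounts 2.0.6. How reads were counted, and on which annotation, is not given in the sources. The deposited values are estimated counts per Ensembl gene, not normalized, and 46.5% to 50.0% of those above 0 are fractional. The table's 6 further columns match no sample listed here and stayed out. Every row names a gene. Names, coordinates (numbered from 1) and lengths came from GENCODE M21 (GRCm38), which matched 47310 of 47729 IDs; levels per kilobase use the longest APPRIS principal transcript.

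After rounding to whole numbers, each total was within 0.00866% of its deposited value. All 15 pairs of libraries differed beyond sampling noise, with a chi-square of at least 17.7 for each degree of freedom. Genes were kept by filterByExpr and tested two-sided in edgeR 4.0.16 (R 4.3.3) with TMM factors and robust quasi-likelihood F tests, without covariates, at a Benjamini-Hochberg adjusted p of 0.05; standard errors were taken as |log2 fold change| over √F. No batch is given in the labels. DESeq2 1.42.0, limma 3.58.1, other scalings and filters, a replicate block and omission of libraries were alternatives. Pseudogenes were tied to a member by blastn 2.17.0 (at least 80% identity over at least 50% of the pseudogene, 10 or more counts in all). Promoter motifs were searched only in the part of each RefSeq window upstream of the start, in place of the whole window. On counts simulated for this comparison (17123 genes tested in that step), edgeR recovered 25 of 100 genes changed by 1 on the log2 scale and 88 of 100 changed by 2, with 14 false calls. DESeq2 recovered 50 and 91, with 51 false calls. The simulated counts used the spread that edgeR estimated for each gene and held no outlying library.

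The members, gene lists and isoform pairs were chosen with earlier results of these data known, so no list was tested as a set. The isoform ratios were each given a permutation test, whose p of 0.1 only restates that the groups did not overlap. Values in every library are given for members called by edgeR or DESeq2, for those whose groups do not overlap, and for 12 members named whatever their values (Slc2a1, Slc2a4, Hk1, Hk2, Pfkm, Gapdh, Ldha, Ldhb, Pdk1, Mpc1, Gys1 and Pygm). From the other lists the genes with the smallest edgeR p were named, up to 4 a list, with Pdk4, Klf15, Txnip and Hif1a in any case.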

Additional observations from a re-analysis of the deposited data

How the results depend on the processing

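At an adjusted p of 0.05 edgeR called 0 of all genes, 0 members and 0 genes of the pathway and marker lists, and the alternatives moved these counts as follows. DESeq2 called 644, 8 and 10, sample quality weights 264, 4 and 2, and edgeR without a filter 38 of all genes. Leaving out 1 library at a time gave 0 to 230, 0 to 4 and 0 to 1, the upper ends without control replicate 3; leaving out control replicate 3 and Treg replicate 3 gave 119, 1 and 1. At an adjusted p of 0.1 edgeR called 82 of all genes and 2 members (Pgk1 and Pdk3). The same replicate numbers did not deviate together (correlations −0.142, −0.236 and 0.042), and with the replicate number as a block edgeR called 0 genes and 0 members (2472 genes at an unadjusted p under 0.05). The same count at unadjusted p was 2816 for limma-voom and 2925 for edgeR's newer method. The members' median log2 fold change stayed between −0.24 and −0.10 under all alternatives run. When 1 library was left out, 7 to 10 isoform ratios did not overlap. This count could not fall below 7, since groups that do not overlap stay apart when a library is removed. All 8 members called by DESeq2 kept their sign in every alternative. Their groups do not overlap, so leaving out a library could hardly have reversed them. Of the 38 tested members, 30 kept their sign throughout, these included. The other 8, all with small fold changes except Pfkfb3, reversed as follows. With quality weights Pfkl had −0.19, Tigar −0.08, Pdha1 −0.07 and Pdhb −0.01. Mpc1 had 0.01 without a filter. Where leaving out 1 library reversed a sign, the values over the 6 omissions ran from −0.28 to 0.21 for Pfkl, −0.81 to 0.08 for Pfkfb3, −0.26 to 0.02 for Pfkfb4, −0.13 to 0.36 for Tigar, −0.11 to 0.13 for Pdha1, −0.05 to 0.14 for Pdhb, −0.16 to 0.07 for Mpc1 and −0.10 to 0.28 for Pygb. Control replicate 3 was the library whose omission gave the values of reversed sign for Pfkfb3 and the lowest ones for Pfkl, Tigar and Pygb. Without control replicate 3 and Treg replicate 3, Pfkl had −0.33, Tigar −0.08, Mpc1 0.01 and Pygb −0.03. The cause of these changes was not tested. Protein-coding genes only and counts with pseudogene copies added were alternatives chosen after seeing the data. Low counts limit Pfkfb1, Pfkfb4, Phkg1 and Pdk3, with means under 10 CPM in both groups, and Slc16a3, with a mean under 10 CPM in Treg. A further 2 members were too low to test.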
